A study of Mus musculus with 90 samples.

Results

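The tumours described here are regressing mouse melanomas under PD-L1 antibody treatment, divided by how much T cell and cytotoxic transcript each one carried. Study 2 of the series holds 17 responder tumours, and each was given a cytotoxic score, the mean log2 value of Cd3g, Cd3e, Cd8a, Nkg7 and Gzmb. The 8 tumours with the highest score (high-score tumours) were set against the 8 with the lowest (low-score tumours), the middle tumour was left out, and so 16 of the 90 arrays of the series were compared. The tumours were chosen by these 5 genes, so the 5 genes were left out of every test and their values are given as a description.

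Both sets of tumours share the labelled genotype, strain, antibody and dose. They are subcutaneous melanoma allografts with the genotype Hgftg;Cdk4R24C/R24C in strain B6.cBrd, treated at 10 mg/kg with clone 80, an antibody to mouse PD-L1 in the mIgG1 D265A format, and harvested as responders, meaning a tumour whose volume had dropped by 5% or more. The groups outside the split were the 10 responders of study 3 on the same antibody, the 14 study 2 and 9 study 3 non-responders, which grew under it, and the 14 study 2 and 8 study 3 tumours given control mouse IgG1 D265A at 10 mg/kg, with the same genotype and strain. Every tumour carries its own animal number, and the tests rest on how far separate tumours spread. The series text also names 20 mg/kg for the antibodies, and the dose given here is that of the sample labels. No label names a processing batch. In the order in which the series lists the 17 responders, by which replicates are numbered, 7 of the first 8 were high-score tumours and 1 was a low-score tumour, so the score and whatever goes with that order cannot be told apart. The age of the mice, the promoter of the Hgf transgene, the time from first dose to harvest of each tumour and whether all allografts came from 1 donor tumour are not given in the sources used here.

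PD-L1 on tumour and myeloid cells binds PD-1 on T cells and restrains them, and an antibody that blocks it can release T cells that already sit in the tumour. Activated CD8 T cells kill through granzymes and perforin and secrete interferon gamma, which acts on neighbouring cells to raise antigen presentation, chemokines that draw in more T cells, and PD-L1 itself. Whole-tumour RNA mixes melanoma cells with infiltrating leukocytes and stroma, so in all values below fewer cells of a type and less RNA per cell cannot be told apart.

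The score ran from 8.21 to 9.75 in high-score tumours (mean 9.19 ± 0.50 SD, n = 8) and from 6.48 to 8.05 in low-score tumours (mean 7.26 ± 0.46 SD, n = 8). At the boundary, the last high-score tumour had 8.21, the middle tumour 8.20 and the first low-score tumour 8.05, so the division there is narrow. Gzmb, a granzyme of killer cells, had a lowest, median and highest log2 value of 9.89, 11.03 and 11.60 in high-score tumours, against 7.83, 8.31 and 9.47 in low-score tumours. Cd8a, a chain of the CD8 co-receptor, had 6.97, 8.0 and 8.64 in high-score tumours, against 5.82, 6.28 and 6.71 in low-score tumours. Cd3g, part of the CD3 signalling complex of T cells, had 8.01, 9.11 and 9.57 in high-score tumours, against 5.40, 6.75 and 7.96 in low-score tumours. The low-score responders were in the range of tumours that were not regressing. All 8 lay within the range of the study 2 IgG tumours, which ran from 6.06 to 8.08 with a median of 7.01, and 7 of the 8 lay within the range of 13 of the 14 study 2 non-responders, from 5.62 to 7.81. The remaining non-responder, replicate 14, had a score of 10.53 and the lowest mean of melanocyte differentiation genes in its group (8.49, group median 9.9). In study 3, 9 of 10 responders scored at or above the lowest high-score tumour of study 2, between 7.62 and 10.28 over all 10.

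**Figure D1:**
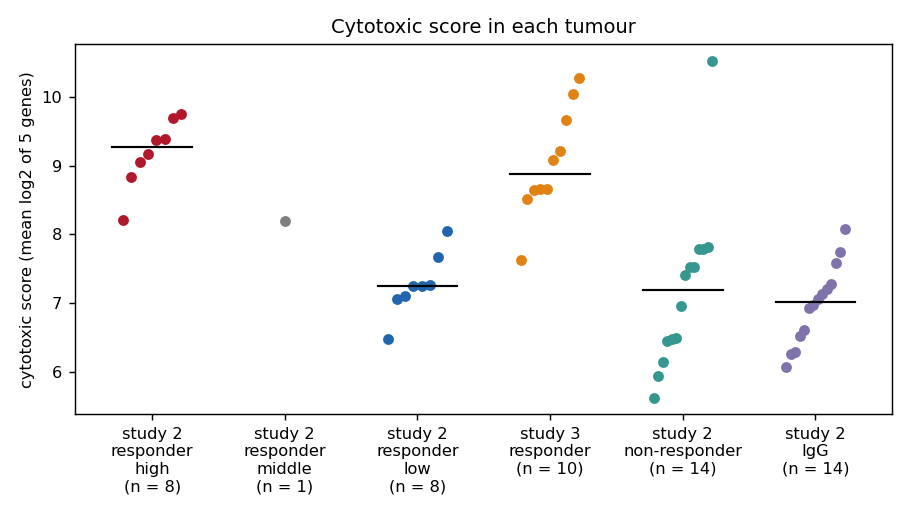
Cytotoxic score (vertical axis, mean log2 value of 5 genes) of each tumour, one point per tumour, with a line at the median of each group. The 8 high-score responders of study 2 lie between 8.21 and 9.75, and the 8 low-score responders lie between 6.48 and 8.05, within the range of the study 2 IgG tumours.

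High-score and low-score tumours differed across much of the transcriptome. Of 18189 genes tested by limma, 1120 were higher in high-score tumours (6.16% of all genes tested) and 1221 were lower (6.71%) at an adjusted p under 0.05. Large changes ran mostly one way, with 363 genes higher and 29 lower by 2-fold or more. The 2 sets did not overlap at all for 85 higher genes (0.467%) and 91 lower genes (0.500%). With each array centred on its median, 961 genes were higher and 2109 lower, so the split between higher and lower calls depends on the scaling, while the median change of all genes was -0.03 in the values as deposited and -0.11 after centring.

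Other cell types and RNA quality varied within the 2 sets. High-score replicates 3, 4 and 5 carried the highest fibroblast and pericyte list means of the 16 tumours (9.62, 10.66 and 9.46), together with the highest B cell, endothelium and neutrophil means, and without these 3 tumours 559 genes passed (441 higher, 118 lower). The mean of the melanocyte differentiation list was 9.23, 9.60 and 9.91 (lowest, median, highest) in high-score tumours, against 9.69, 9.83 and 9.96 in low-score tumours. With that mean as a covariate no gene passed, although 1872 had an unadjusted p under 0.05. The macrophage mean as a covariate also left no gene past the threshold, with 1217 at an unadjusted p under 0.05. The 3′ minus 5′ difference between control probe sets for Actb and Gapdh, a measure of RNA integrity, ran from -0.02 to 0.22 in high-score tumours, against -0.11 to 0.08 in low-score tumours, and with it as a covariate 767 genes passed (593 higher, 174 lower). Muscle transcripts were abundant in low-score replicate 14 (list mean 11.68) and high-score replicate 6 (8.83). Melanoma markers were present in all 16 tumours, with Pmel at 9.42 or more in high-score tumours and at 10.74 or more in low-score tumours.

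**Figure D2:**
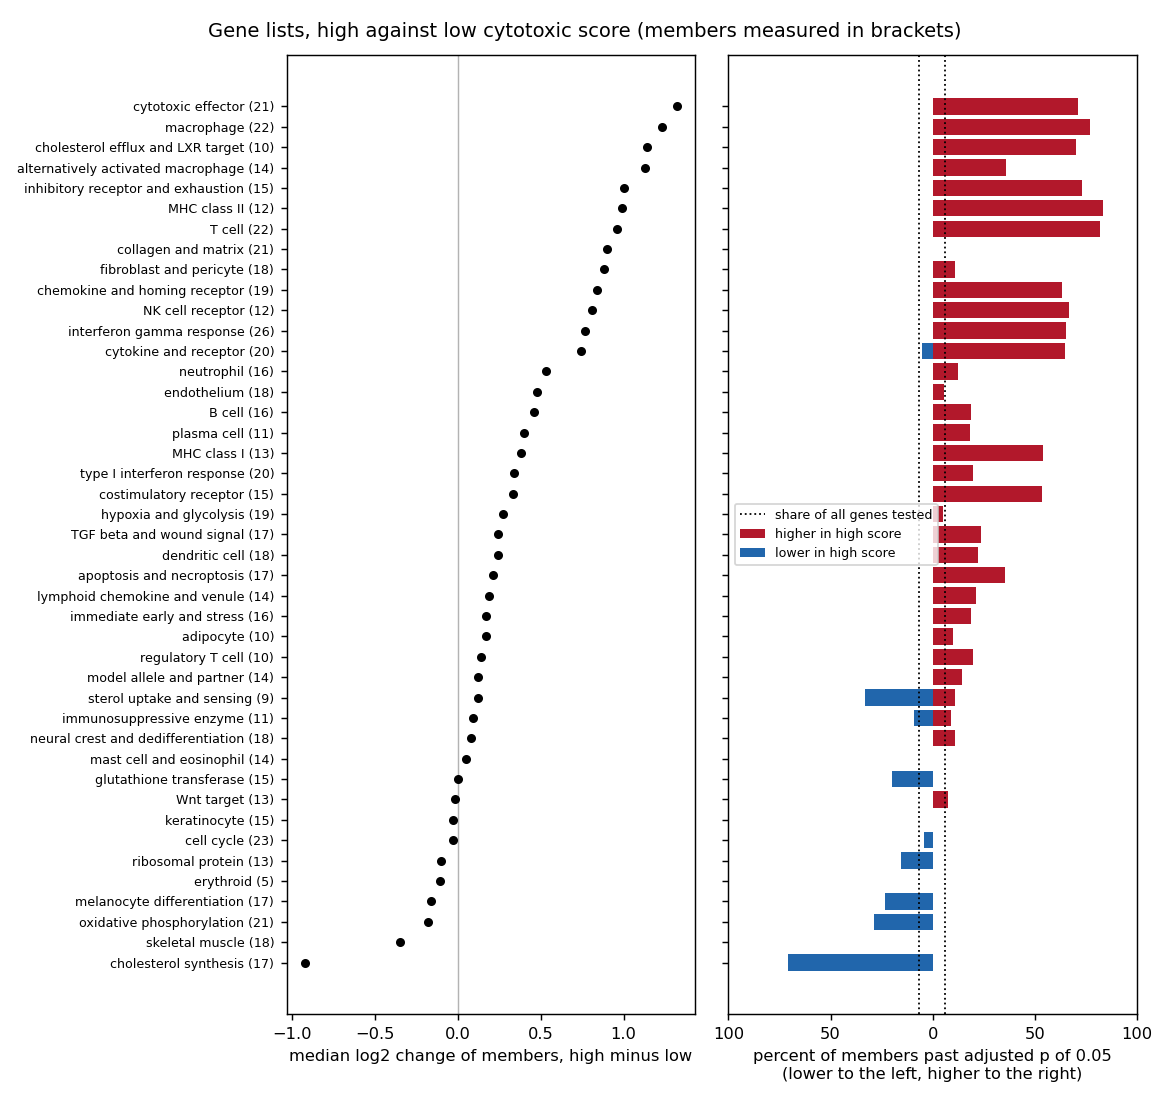
Left, median log2 change (high minus low score) of the members of each gene list. Right, percent of members past an adjusted p of 0.05, higher in red and lower in blue, with dotted lines at the share of all genes tested (6.16% higher, 6.71% lower). Leukocyte lists lie at the top and the cholesterol synthesis list, with a median of -0.92, at the bottom.

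Further T cell and cytotoxic genes followed the score. These genes mark the same cells as the 5 score genes, so their values describe the split, and single genes carried mainly by lymphocytes are given without p-values here and below. In the T cell list 21 of 22 measured genes had estimates above 0 and 1 below, with a list median of 0.96 on the log2 scale. Tbx21, the transcription factor T-bet of type 1 T cells, had 6.09, 6.95 and 7.28 in high-score tumours, against 4.35, 4.77 and 5.98 in low-score tumours. The 2 sets did not overlap for this gene. Il2rb, a chain of the IL-2 and IL-15 receptor, had 7.69, 8.57 and 9.08 in high-score tumours, against 6.08, 6.64 and 7.46 in low-score tumours, again without overlap. Among 21 measured cytotoxic effector genes 20 had estimates above 0 and 1 below, with a median of 1.32. Prf1, the pore former perforin, had 7.12, 8.22 and 8.95 in high-score tumours, against 6.06, 6.51 and 7.14 in low-score tumours, and the 2 sets met only at their edges.

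Cd4, Foxp3 and most other regulatory T cell genes moved little. Cd4, the co-receptor of helper T cells that macrophages also carry, had 6.40, 6.66 and 6.95 in high-score tumours, against 6.28, 6.42 and 6.69 in low-score tumours. That is a 1.19-fold difference (log2 0.25 ± 0.08 SE), close to the threshold, and it lost the threshold in 27 of the alternative settings. Foxp3, the master regulator of regulatory T cells, had 5.15, 5.40 and 5.82 in high-score tumours, against 5.27, 5.57 and 5.70 in low-score tumours (log2 -0.10 ± 0.09 SE, not past the threshold). These Foxp3 values lie near the medians of the arrays (5.71 to 5.90), and so weak a signal may hide a change. Whether regulatory or helper cells followed the score cannot be told from these genes. Of 10 regulatory T cell genes 2 were higher (Ebi3 and Il10, which other leukocytes also make) and none was lower, with a list median of 0.14. Of all genes tested 6.16% were called higher.

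Secreted products of activated lymphocytes were among the genes with the largest changes. Ifng, which encodes interferon gamma, had 6.12, 7.41 and 7.76 in high-score tumours, against 4.2, 5.31 and 5.92 in low-score tumours. The sets did not overlap and the change was 4.33-fold (log2 2.12 ± 0.26 SE). Genes of 3 chemokines that attract leukocytes were also higher. Ccl5 had 10.27, 11.58 and 12.26 in high-score tumours, against 8.33, 9.03 and 10.07 in low-score tumours, a 4.68-fold change. Ccl3 changed 4.28-fold and Ccl4 2.76-fold. For all of these chemokines every high-score tumour lay above every low-score tumour. Ltb, which encodes lymphotoxin beta, had 7.80, 8.95 and 9.65 in high-score tumours, against 6.09, 7.34 and 8.01 in low-score tumours, with 7 of 8 high-score tumours above all low-score tumours (3.17-fold, log2 1.67 ± 0.27 SE).

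Inhibitory receptors of T cells and the ligands that engage them were higher together. In this list 11 of 15 measured genes rose and none fell, with a median of 1.0 (6.16% of all genes were called higher). Pdcd1, which encodes PD-1, had 6.17, 7.18 and 7.92 in high-score tumours, against 5.10, 5.68 and 6.15 in low-score tumours, without overlap (2.71-fold, log2 1.44 ± 0.23 SE). Lag3, an inhibitory receptor that binds MHC class II, had 6.58, 7.27 and 8.01 in high-score tumours, against 5.60, 6.00 and 6.55 in low-score tumours, also without overlap (2.51-fold). Cd274, the gene for the antibody target PD-L1, had 8.75, 9.46 and 10.03 in high-score tumours, against 8.09, 8.41 and 8.93 in low-score tumours. In 7 of 8 high-score tumours it exceeded every low-score tumour (2.01-fold, log2 1.0 ± 0.15 SE, adjusted p = 0.00129). Pdcd1lg2, the second PD-1 ligand, changed 2.22-fold (adjusted p = 0.00077), and Entpd1, an ATP-degrading ectoenzyme of exhausted T cells and myeloid cells, 2.75-fold. The receptors sit on the cells that the score reads, so their count is not independent of it. Without the 3 stroma-rich tumours 9 of the 15 genes still passed.

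Genes of the interferon gamma response were higher in high-score tumours. In this list 17 of 26 measured genes rose and none fell, beside 6.16% of all genes called higher. The list median was 0.77 on the log2 scale, and 16 genes rose without the 3 stroma-rich tumours. The list is not made of induced genes alone. It also holds the receptor genes Ifngr1 and Ifngr2 and Ifng itself, which is among the 17 and comes from the cells that the score reads. With the macrophage mean as a covariate no gene of the list passed and the median was 0.65. Gbp2b, a guanylate-binding GTPase that attacks intracellular pathogens, showed the largest rise of all genes past the threshold. It had 7.87, 9.06 and 9.77 in high-score tumours, against 5.02, 5.88 and 7.65 in low-score tumours, and the sets did not overlap (6.86-fold, log2 2.78 ± 0.36 SE, adjusted p = 0.00077). Gbp8, of the same family, had 7.09, 8.54 and 9.13 in high-score tumours, against 4.53, 6.24 and 6.97 in low-score tumours, without overlap (4.93-fold, adjusted p = 0.000976). Ubd, the ubiquitin-like modifier FAT10, had 8.74, 10.24 and 11.01 in high-score tumours, against 6.25, 7.59 and 8.82 in low-score tumours, with 7 of 8 high-score tumours above all low-score tumours (5.61-fold, adjusted p = 0.000865). Cxcl9, a chemokine for CXCR3-bearing T cells, had 10.81, 11.94 and 12.62 in high-score tumours, against 9.30, 10.28 and 11.70 in low-score tumours (3.05-fold, log2 1.61 ± 0.29 SE, adjusted p = 0.00368). Igtp, an immunity-related GTPase, had 11.74, 12.57 and 12.81 in high-score tumours, against 10.89, 11.50 and 12.03 in low-score tumours (1.94-fold, log2 0.95 ± 0.18 SE, adjusted p = 0.00393). The type I interferon list shares inducers with this one. It had 4 of 20 genes higher and none lower, beside the same share of 6.16%, with a median of 0.34.

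Promoters of 3 of these genes are shown because their transcripts rose and the windows hold sequence elements through which interferons act. The 3 were thus chosen for their matches. The gamma-activated site was searched as TTCNNNGAA, and the interferon-stimulated response element, bound by IRF factors, as GAAANNGAA, on both strands, from 250 bases before to 50 bases after each gene's start in RefSeq (GRCm38.p6). Of 19 genes of the interferon gamma list with a promoter in the table, 6 (31.6%) held the first and 11 (57.9%) the second. Ifng was among the 6, and Ubd held neither. Among 14448 tested genes with a promoter 1237 (8.6%) held the first and 1258 (8.7%) the second. A match is a run of letters, not a measured site. The 250 bases before the start follow 5′ to 3′ on the gene's strand, with matches in capitals, for Gbp2b (chr3:142594597-142594846, plus strand), Cxcl9 (chr5:92328080-92328329, minus strand) and Igtp (chr11:58199306-58199555, plus strand), in which the first capitals are the gamma-activated site and the second the response element.
Gbp2b: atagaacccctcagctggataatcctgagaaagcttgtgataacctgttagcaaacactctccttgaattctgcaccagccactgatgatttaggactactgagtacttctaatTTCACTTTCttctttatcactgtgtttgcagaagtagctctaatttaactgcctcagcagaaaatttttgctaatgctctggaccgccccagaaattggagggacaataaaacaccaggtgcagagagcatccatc
Cxcl9: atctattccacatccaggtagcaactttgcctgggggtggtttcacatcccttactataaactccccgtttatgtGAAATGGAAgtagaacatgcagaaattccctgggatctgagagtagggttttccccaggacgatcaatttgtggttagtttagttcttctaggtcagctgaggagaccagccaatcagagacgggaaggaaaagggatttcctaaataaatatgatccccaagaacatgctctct
Igtp: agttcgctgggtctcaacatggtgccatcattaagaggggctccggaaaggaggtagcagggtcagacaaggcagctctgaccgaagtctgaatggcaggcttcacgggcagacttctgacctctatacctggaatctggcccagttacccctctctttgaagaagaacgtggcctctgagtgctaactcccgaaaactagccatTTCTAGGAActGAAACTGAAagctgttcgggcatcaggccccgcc
The match in Gbp2b begins 136 bases before the start and that in Cxcl9 175 bases before it, and the pair in Igtp begins 45 and 34 bases before it.

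Antigen presentation genes rose with the score. Of 12 measured MHC class II pathway genes 10 rose and none fell (median 0.99), and of 13 class I genes 7 rose and none fell (median 0.38). Among all genes tested 6.16% were called higher. Ciita, the master activator of class II genes, had 6.58, 6.79 and 6.99 in high-score tumours, against 5.52, 6.01 and 6.45 in low-score tumours, without overlap (1.70-fold, log2 0.77 ± 0.11 SE, adjusted p = 0.00103). Of its 3 probe sets 2 passed. H2-DMa, which helps load peptides on class II molecules, had 8.98, 10.20 and 10.44 in high-score tumours, against 7.44, 8.40 and 9.62 in low-score tumours (2.75-fold, adjusted p = 0.00322). Tap1, which pumps peptides to class I molecules, changed 1.84-fold (log2 0.88 ± 0.13 SE, adjusted p = 0.00118), but 3 of its 4 probe sets did not pass. Without the 3 stroma-rich tumours 3 of the class II genes and 5 of the class I genes passed.

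Macrophage genes formed one of the largest blocks that rose. In the macrophage list 17 of 22 measured genes were higher and none lower (median 1.23), beside 6.16% of all genes called higher. Without the 3 stroma-rich tumours 5 passed while 20 of the 22 estimates stayed above 0. Cd68, a lysosomal protein of macrophages, had 9.77, 10.88 and 12.06 in high-score tumours, against 8.53, 9.02 and 9.97 in low-score tumours, with 7 of 8 high-score tumours above all low-score tumours (3.23-fold, log2 1.69 ± 0.28 SE, adjusted p = 0.00214). Csf1r, through which macrophages receive their growth factor, had 10.45, 11.41 and 13.10 in high-score tumours, against 8.83, 9.73 and 11.62 in low-score tumours, and only 3 high-score tumours lay above all low-score tumours (3.44-fold, adjusted p = 0.0119). Ccr2, the receptor by which blood monocytes enter tissue, changed 3.13-fold (adjusted p = 0.00418).

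Several of the 12 largest rises are genes of activated macrophages. Slamf8, a surface receptor of myeloid cells, had 7.31, 8.89 and 9.72 in high-score tumours, against 4.97, 6.35 and 7.15 in low-score tumours, without overlap (5.71-fold, log2 2.51 ± 0.33 SE, adjusted p = 0.00077). Acod1, which makes itaconate in inflammatory macrophages, had 7.19, 8.77 and 10.02 in high-score tumours, against 5.49, 6.09 and 7.24 in low-score tumours (5.46-fold, adjusted p = 0.00077). Hk3, a hexokinase of myeloid cells, changed 4.42-fold without overlap (adjusted p = 0.00077). Cd5l, a secreted macrophage protein, had 7.37, 9.75 and 10.82 in high-score tumours, against 5.54, 6.91 and 8.86 in low-score tumours, with 6 of 8 high-score tumours above all low-score tumours (6.61-fold, log2 2.72 ± 0.52 SE, adjusted p = 0.00473). Pla2g7, a phospholipase that degrades platelet-activating factor, changed 4.54-fold (adjusted p = 0.00436).

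Homing and cytokine receptors also rose. Of 19 measured chemokine and homing receptor genes 12 rose and none fell (median 0.84), and of 20 cytokine genes 13 rose and 1 fell (median 0.74). The shares of all genes tested were 6.16% higher and 6.71% lower. The gene that fell was Il15, a cytokine that sustains memory CD8 T cells (log2 -0.57), while its receptor chain Il15ra rose (log2 1.27). Itgal, the alpha chain of the integrin LFA-1, had 8.37, 9.41 and 10.16 in high-score tumours, against 6.70, 7.40 and 8.40 in low-score tumours (3.57-fold). Cxcr6, a chemokine receptor of tissue-resident T cells, had 7.64, 8.70 and 9.19 in high-score tumours, against 5.64, 6.72 and 7.95 in low-score tumours (3.47-fold). In both genes 7 of 8 high-score tumours lay above all low-score tumours. Il10ra, which receives the suppressive cytokine IL-10, changed 2.87-fold.

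**Figure D3:**
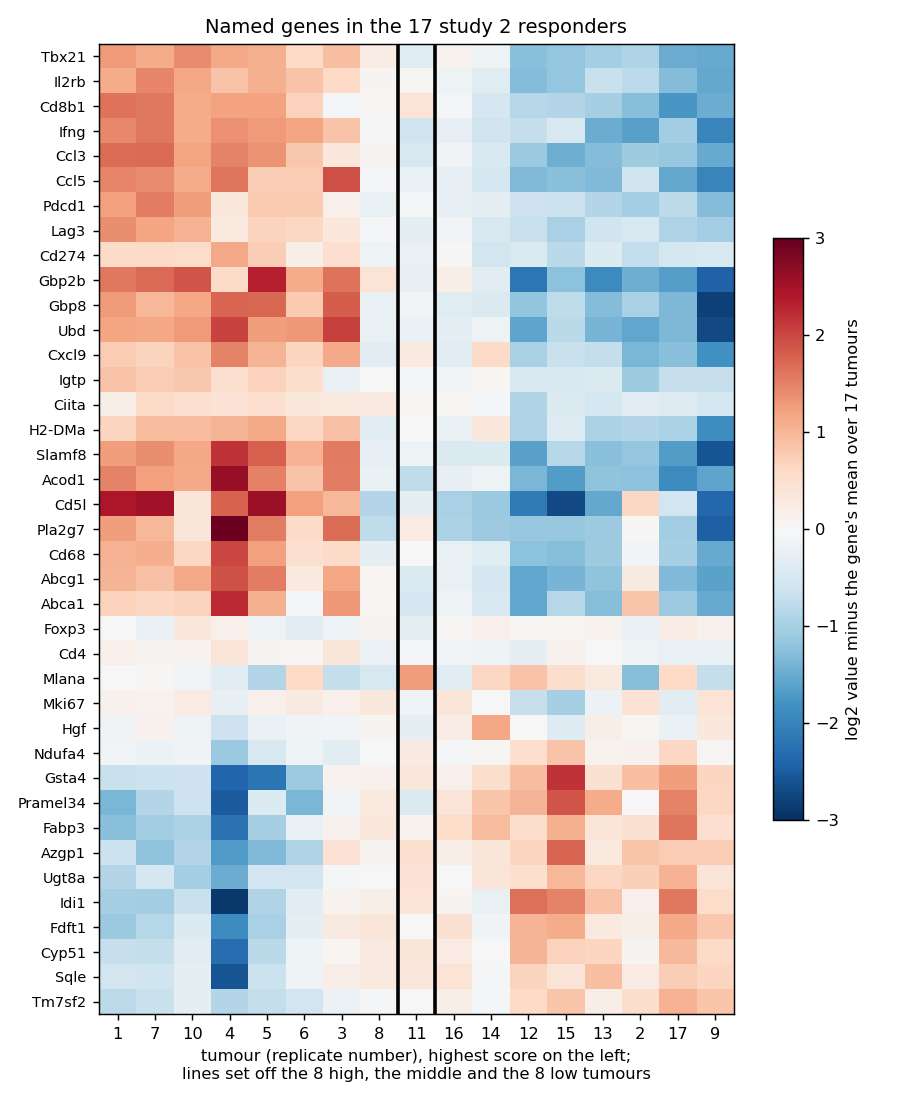
Log2 value minus the gene's mean over the 17 study 2 responders for 39 named genes (rows) in each tumour (columns, highest score on the left). Most lymphocyte, interferon and macrophage genes, and Abcg1 and Abca1, are red on the left and blue on the right. Cholesterol synthesis genes are the reverse. High-score replicate 8 and low-score replicates 16 and 14, next to the middle tumour, are mostly pale in both blocks.

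Stroma varied more within the 2 sets than between them. None of 21 collagen and matrix genes passed, although all 21 estimates were above 0 (median 0.90), and without the 3 stroma-rich tumours the median was 0.21. Col1a1, a chain of the main fibrillar collagen, had 9.08, 9.96 and 13.21 in high-score tumours, against 7.21, 8.70 and 11.90 in low-score tumours (log2 1.84 ± 0.69 SE, adjusted p = 0.0883). Cxcl12, a stromal chemokine, is listed with the sixth largest rise, 5.27-fold, but its sets ran from 7.86 to 11.81 in high-score tumours and from 4.13 to 9.74 in low-score tumours, its adjusted p was 0.0368, and it did not pass in 14 alternative settings, with the sign turned in 1 of them, the macrophage covariate. Pecam1, an adhesion protein of endothelial cells and leukocytes, was the single endothelial gene of 18 that passed (1.93-fold, adjusted p = 0.0258). Of all genes tested 6.16% were called higher, so the endothelial count is near that share. Among 16 B cell genes 3 rose and none fell (Cd37, Cd22 and Pou2af1), and among 16 neutrophil genes 2 rose (Csf3r and Clec4d), beside the same share of 6.16%. No mast cell and eosinophil, muscle or keratinocyte gene passed. Adipoq, an adipocyte hormone, ran from 4.24 to 11.16 in high-score tumours, against 4.09 to 9.66 in low-score tumours (adjusted p = 0.887).

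Lists of melanoma and proliferation genes had small median changes. Of 17 melanocyte differentiation genes 4 fell and none rose (median -0.16), against 6.71% of all genes called lower. Pmel, the fibril protein of pigment granules, had 9.42, 10.60 and 11.87 in high-score tumours, against 10.74, 11.61 and 11.87 in low-score tumours (1.90-fold lower, log2 -0.92 ± 0.29 SE, adjusted p = 0.0487). Mlana, a melanosome protein, had 8.79, 9.46 and 10.28 in high-score tumours, against 8.41, 10.08 and 10.54 in low-score tumours (adjusted p = 0.515). Without the 3 stroma-rich tumours none of the 17 passed. Hgf, the transgene of the model, had 11.22, 11.72 and 11.96 in high-score tumours, against 11.45, 11.93 and 12.99 in low-score tumours (adjusted p = 0.268). In the cell cycle list 1 of 23 genes fell, Pcna, and none rose, a count near the 6.71% of all genes called lower. Mki67, a marker of dividing cells, had 10.77, 11.15 and 11.33 in high-score tumours, against 10.00, 10.91 and 11.44 in low-score tumours (log2 0.27 ± 0.18 SE, adjusted p = 0.359). Oxidative phosphorylation genes were slightly lower, with 6 of 21 past the threshold, a median of -0.18 and none past it without the stroma-rich tumours. Ndufa4, a subunit of the respiratory chain, had a median of 12.86 in high-score tumours, against 13.13 in low-score tumours, with 7 of 8 high-score tumours below all low-score tumours (1.5-fold lower, adjusted p = 0.0284).

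Genes of cholesterol synthesis were lower in high-score tumours. Cells build cholesterol from acetyl-CoA through mevalonate and squalene, and switch this pathway off when sterols are plentiful, while the sterol receptors of the LXR family then switch on transporters that export cholesterol. Idi1, Fdft1, Cyp51 and Msmo1, all enzymes of this pathway, were among the 12 largest falls, and a list of the pathway and 2 lists of sterol handling were written after this had been seen, so they describe the finding and do not test it. In the synthesis list 12 of 17 measured genes were past the threshold and lower, none was higher, all 17 estimates were below 0 and the median was -0.92 on the log2 scale, while 6.71% of all genes were called lower. Without the 3 stroma-rich tumours 8 passed with all 17 estimates below 0, and without replicate 4 alone 12 passed. With the 3′ minus 5′ difference as a covariate 1 passed, with a median of -0.84.

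Idi1, which isomerises isopentenyl diphosphate, had 6.94, 9.07 and 10.02 in high-score tumours, against 9.63, 10.55 and 11.49 in low-score tumours, with 6 of 8 high-score tumours below all low-score tumours (3.01-fold lower, log2 -1.59 ± 0.39 SE, adjusted p = 0.0172). Fdft1, the squalene synthase, had 7.38, 8.63 and 9.64 in high-score tumours, against 9.17, 9.90 and 10.42 in low-score tumours (2.34-fold lower, adjusted p = 0.0135), with 2 of its 4 probe sets past the threshold. Sqle, which oxidises squalene, had 7.39, 9.54 and 10.26 in high-score tumours, against 9.93, 10.51 and 10.88 in low-score tumours (2.06-fold lower, adjusted p = 0.0361). Tm7sf2, a sterol reductase, was the member whose sets did not overlap. It had 6.53, 6.79 and 7.34 in high-score tumours, against 7.38, 7.97 and 8.45 in low-score tumours (2.07-fold lower, log2 -1.05 ± 0.16 SE, adjusted p = 0.00144). Cyp51 and Msmo1, which demethylate sterol intermediates, were 2.16-fold and 2.15-fold lower (adjusted p = 0.0202 and 0.0192). The other probe set of Msmo1 changed by -0.32 on the log2 scale and did not pass. Insig1, a sensor that holds the pathway's activator back and is itself induced by it, fell by 0.93 on the log2 scale (adjusted p = 0.0178). Srebf2, which encodes that activator, did not pass (log2 -0.39, adjusted p = 0.127).

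Genes of cholesterol export and other LXR targets were higher in the same tumours. Of 10 measured genes of the efflux and LXR target list 7 rose and none fell (median 1.14), beside 6.16% of all genes called higher. Without the 3 stroma-rich tumours 3 passed. The list holds more than exporters, and Apoe, Apoc1 and Scd1 did not pass. Its largest change (2.72) was that of Cd5l, given above among the 12 largest rises, which were known when the list was written. Abcg1, a cholesterol exporter, had 9.01, 10.02 and 10.86 in high-score tumours, against 7.34, 7.68 and 9.22 in low-score tumours, with 7 of 8 high-score tumours above all low-score tumours (3.83-fold, log2 1.94 ± 0.30 SE, adjusted p = 0.00152). Abca1, which loads cholesterol onto apolipoproteins, had 10.08, 10.82 and 12.38 in high-score tumours, against 8.58, 9.17 and 10.97 in low-score tumours (3.00-fold, adjusted p = 0.0104). Nr1h3, which encodes LXR alpha, rose by 0.90 on the log2 scale (adjusted p = 0.00539). Macrophages carry these exporters, and the macrophage list means were 8.85, 9.76 and 10.59 in high-score tumours, against 7.74, 8.76 and 9.33 in low-score tumours. With the macrophage mean as a covariate no gene of either list passed, the synthesis median was -0.15 with 14 of 17 estimates below 0, and the efflux median was 0.14. With the melanocyte mean as a covariate, which also left none past the threshold, the synthesis median was -0.48 and the efflux median 0.61.

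**Figure D4:**
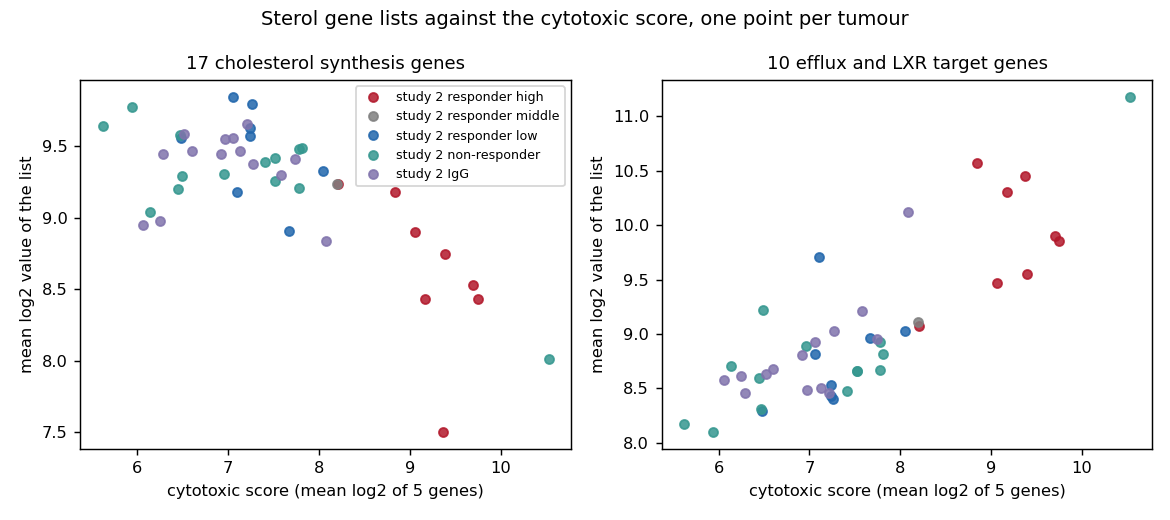
Mean log2 value of 17 cholesterol synthesis genes (left) and 10 efflux and LXR target genes (right) against the cytotoxic score, one point per study 2 tumour, coloured by group. On the left, high-score responders lie between 7.50 and 9.24 and low-score responders between 8.91 and 9.85, beside the IgG tumours, and non-responder replicate 14, far to the right, lies at 8.01.

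The remaining large falls belong to no one list. Gsta4, a glutathione transferase that clears lipid peroxidation products, showed the largest fall. It had 7.98, 9.71 and 10.49 in high-score tumours, against 10.52, 11.13 and 12.54 in low-score tumours, without overlap (3.49-fold lower, log2 -1.80 ± 0.36 SE, adjusted p = 0.0061). Pramel34, of the PRAME-like family, had 3.46, 5.20 and 6.24 in high-score tumours, against 5.96, 6.89 and 7.84 in low-score tumours (3.46-fold lower, adjusted p = 0.00473). Fabp3, a fatty acid carrier, was 2.89-fold lower without overlap (adjusted p = 0.00541), but its other probe set changed by -0.05 on the log2 scale. Azgp1, a secreted glycoprotein linked to lipid mobilisation, was 2.77-fold lower (adjusted p = 0.00469). Ugt8a, which makes galactosylceramide, had 5.59, 6.52 and 7.11 in high-score tumours, against 7.08, 7.65 and 8.14 in low-score tumours (2.33-fold lower, adjusted p = 0.00212). Its other probe set changed by -0.29 on the log2 scale and did not pass. Plekhb1, Spink8 and Acyp2 were 2.50-fold, 2.28-fold and 2.27-fold lower (adjusted p = 0.0276, 0.0165 and 0.0116).

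Tumours outside the split were used to see whether the same genes followed the score elsewhere, with the log2 change per unit of score (slope) fitted in each group. In the 10 study 3 responders 2073 genes had a slope past the threshold (11.4% of all genes tested). Of the 1120 genes that rose in study 2, 95.2% had a slope of the same sign, and of the 1221 that fell, 93.7%, against 74.7% of all genes. Leaving out 2 study 3 responders low in melanocyte transcripts left 21 genes past the threshold, 847 at an unadjusted p under 0.05, and shares of 97.7%, 93.8% and 72.3%. All 17 cholesterol synthesis genes had slopes below 0 in the study 3 responders, with 15 past the threshold, and all 17 stayed below 0 without the 2 tumours, with none past it. Over all 10 study 3 responders the slope was -1.09 ± 0.27 for Idi1 (SE, adjusted p = 0.0404) and 1.09 ± 0.14 for Abcg1 (adjusted p = 0.00555). Of the 10 efflux and LXR target genes 6 passed over all 10 tumours and none without the 2. All 10 of these slopes were above 0 in both fits, with medians of 0.78 and 0.57. In the melanocyte differentiation list 8 of 17 slopes passed below 0 over all 10 tumours (median -1.30), and none passed without the 2.

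Slopes of interferon gamma genes in study 3 responders depended on which tumours were fitted, and no test compared them with study 2. Of 26 genes 2 had a slope above 0 and 1 a slope below 0 past the threshold, with a median of -0.10. That count is near the 11.4% of all genes tested that passed in this group. Without the 2 tumours low in melanocyte transcripts 25 of 26 slopes were above 0, with a median of 0.21 and none past the threshold. Gbp2b had 8.25, 9.39 and 10.37 in study 3 responders, all at or above the lowest high-score tumour of study 2 (7.87), and a slope of 0.09 ± 0.29 (adjusted p = 0.851). The T cell list had 16 of 22 slopes past the threshold and above 0, beside the same 11.4%, with a median of 1.05. Without those 2 tumours 4 passed, and these genes mark the same cells as the score genes.

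**Figure D5:**
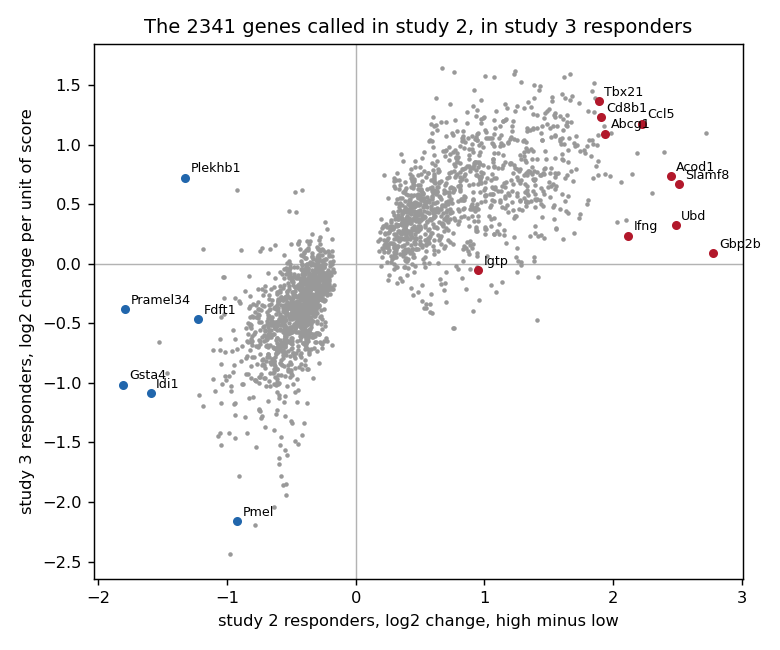
Log2 change between high-score and low-score study 2 responders (horizontal axis) against the log2 change per unit of score in study 3 responders (vertical axis), one point per gene for the 2341 genes past the threshold in study 2. Most genes keep their sign (95.2% of rises and 93.7% of falls), while Gbp2b (0.09), Ifng (0.24) and Igtp (-0.05) have small slopes.

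The same slopes were fitted in study 2 tumours that were not regressing. In the 14 non-responders 3148 genes had a slope past the threshold (17.3%), but without replicate 14 there were 118, with 1041 at an unadjusted p under 0.05. Over all 14, 99.0% of the rises and 95.5% of the falls kept their sign, against 75.6% of all genes. Without replicate 14 these shares were 90.3%, 68.7% and 57.2%. In the 14 IgG tumours 698 genes passed (3.84%), and the shares were 96.2% of rises, 84.6% of falls and 69.0% of all genes. The interferon gamma list had 20 of 26 slopes past the threshold and above 0 in IgG tumours, with a median of 0.76, and 18 in non-responders without replicate 14. The macrophage list had 12 of 22 in IgG tumours and 17 in all 14 non-responders, but none without replicate 14. For the B cell list 15 of 16 slopes passed in all 14 non-responders and none without that tumour. The B cell list mean reached 10.09 in this group, whose median was 5.16. IgG replicate 7 had the highest score of its group (8.08) and the highest macrophage mean (10.34, group median 8.74). No IgG fit left this tumour out. Slopes past the threshold numbered 104 in study 3 non-responders (0.572%) and 88 in study 3 IgG tumours (0.484%), where scores ran between 6.25 and 7.71 and between 5.93 and 7.74. In study 3 non-responders 61.4% of the rises but 20.6% of the falls kept their sign, against 42.7% of all genes, so most falls had the opposite sign there. In study 3 IgG tumours the shares were 86.2%, 61.6% and 57.2%.

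In the 14 study 2 non-responders all 17 cholesterol synthesis genes had slopes below 0, with 11 past the threshold and a median of -0.25. The share of all genes past it there was 17.3%. Without replicate 14 there were 13 below 0, none past the threshold and a median of -0.07. In IgG tumours none passed, with 10 of 17 below 0 and a median of -0.02. Of the 10 efflux and LXR target genes 8 had slopes past the threshold and above 0 in the non-responders, and none without replicate 14. In IgG tumours 4 did, beside 3.84% of all genes past the threshold, and all 10 were above 0 with a median of 0.60. IgG replicate 7, with the highest score, also had the highest efflux mean of its group (10.12, group median 8.66). Its synthesis mean was the lowest (8.84, group median 9.45), and no IgG fit left it out. The difference in slope between responders and IgG tumours, a test added after seeing these values, was run for all genes, and 2 passed (0.0110%), Tnfsf10 and Rem2, with 1577 genes at an unadjusted p under 0.05. Tnfsf10, the death ligand TRAIL, had a slope of 0.46 in responders and 1.05 in IgG tumours (adjusted p = 0.0471). For the 17 synthesis genes the responder slope was the lower one in every case, with a median difference of -0.48, and none passed. The nearest was Tm7sf2, with a difference of -0.60 (adjusted p = 0.125), so a difference between treated and control tumours was not shown. Between responders and non-responders 39 slopes differed (0.214%), 4 larger and 35 smaller in responders, and none did without replicate 14 (1474 at an unadjusted p under 0.05, smallest adjusted p = 0.199).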

How the data were processed

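RNA from 90 tumours was measured on 3′ expression arrays, and each array has 1 column of the deposited table. Values were deposited as log2 intensities, and the submitters' processing notes name RMA and limma with no version. Other steps of the authors are not given in the sources used here. Array medians lay between 5.71 and 5.90. Arrays give no read depth, so their number limits the precision.

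Of 45101 probe sets, 34958 with 1 gene symbol were kept, and the probe set with the highest mean stood for each of 18194 genes. High and low tumours were compared with limma 3.58.1 in R 4.3.3 (lmFit and eBayes, 2-sided, Benjamini-Hochberg over 18189 genes, threshold 0.05), without the 5 score genes. Slopes on the score used the same procedure within each group; the fit was tested on simulated data. Named genes are the 12 largest rises and falls, up to 4 members of each list by p, the 5 slope differences with the smallest p and a fixed set; some are left out for length. Igtp, Prf1, Tnfsf10, Rem2 and genes of the lists added later were chosen after their values were seen. The members and the 40 gene lists (649 of 719 entries measured) were chosen with earlier results of these data known, and 3 sterol lists and the comparison of slopes with IgG after seeing these values. Promoters come from RefSeq, GRCm38.p6.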

Additional observations from a re-analysis of the deposited data

Results flagged for a closer look

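Values of 1 tumour stood apart from the other 7 of its set in 28 of 210 sets of 8 values examined (13.3%). For normally distributed values chance sets apart about 1 in 20. The 210 sets come from the same 16 tumours and some share genes, so they are not independent and these shares were not compared by a test. A value was taken to stand apart when its gap to the nearest tumour exceeded 0.526 of the range. High-score replicate 8, the tumour nearest the boundary, was the lowest of its set for Ifng (6.12), Pdcd1lg2 (5.23), Ubd (8.74), Cxcl9 (10.81), H2-DMa (8.98) and Slamf8 (7.31). High-score replicate 4 was the lowest for Idi1 (6.94), Cyp51 (6.54), Sqle (7.39), the cholesterol synthesis mean (7.50), Spink8 (5.15), Ndufa4 (11.90), Mki67 (10.77) and Hgf (11.22), and the highest for the TGF beta and wound signal mean (8.77). Muscle transcripts set apart high-score replicate 6 (Acta1 11.53, skeletal muscle mean 8.83) and low-score replicate 14 (Acta1 13.90, skeletal muscle mean 11.68), and low-score replicate 14 also had the highest Hgf (12.99) and the lowest sterol uptake and sensing mean (9.39) of its set. Low-score replicate 9, with the lowest score, was lowest for Gbp8 (4.53), the chemokine and homing receptor mean (7.18) and the apoptosis and necroptosis mean (7.67). Low-score replicate 15 was highest for Azgp1 (9.30) and Plekhb1 (10.22), low-score replicate 16 for Cd274 (8.93), and low-score replicate 2 was lowest for Foxp3 (5.27).

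Slopes on the score differed between responders and non-responders of study 2 for 39 genes. The 5 with the smallest p were Cd209b (difference -0.52), Ccl4 (0.35) and 3 immunoglobulin kappa variable genes (-0.69, -0.57 and -1.20), each with an adjusted p of 0.0303 by limma. Without non-responder replicate 14 the smallest adjusted p among these 5 was 0.223, for Ccl4. Between responders and IgG tumours the slope differed for Tnfsf10 (-0.58) and Rem2 (0.40), each with an adjusted p of 0.0471.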

How the results depend on the processing

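The high against low comparison was repeated under 39 alternatives. The count of 2341 genes (1120 higher, 1221 lower) became 814 (589 and 225) with all 90 arrays fitted, 767 (593 and 174) with the 3′ minus 5′ covariate, 560 (457 and 103) at a threshold of 0.01, 559 (441 and 118) without the 3 stroma-rich high-score tumours, an alternative chosen after seeing the data, and 0 with the melanocyte mean or, chosen after seeing the data, the macrophage mean as a covariate. Lower genes numbered 1886 with the slope over 17 tumours, 806 with array weights and 2109 after median centring. Leaving out 1 tumour gave 1281 to 2994 genes, 787 to 1345 higher and 489 to 1673 lower; fewest remained without low-score replicates 17 (1281), 12 (1342) and 15 (1469) and high-score replicates 5 (1323) and 4 (1488), and with high-score replicates 1 and 7 left out in turn 718 and 777 lower genes remained. Of the 559, 767 and 814 genes, 521, 722 and 783 were among the 2341. Of 144 named genes past the threshold, 7 turned sign, all with the macrophage covariate: Cxcl12 (-0.44), Marco (-0.026), Itgax (-0.116), Pecam1 (-0.055), S100a4 (-0.005), Pmel (0.025) and Npc2 (-0.023). Of 78 named genes not past it, 37 turned sign in at least 1 alternative. Without tumours low in melanocyte transcripts, 21 slopes passed in study 3 responders, 118 in study 2 non-responders and 0 in the difference of slopes, which was also 0 without the dimmest 40% of genes. The cause of these shifts was not tested. No paired analysis was possible because the labels give the high and low tumours no shared replicate numbers.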

Other observations

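Genes of cell death and some other named genes also differed between high-score and low-score tumours. In the apoptosis and necroptosis list 6 of 17 measured genes were higher in high-score tumours and none was lower, with a median of 0.21 (6.16% of all genes were called higher). Pmaip1, which encodes the pro-death protein NOXA, rose by 1.46 on the log2 scale (SE 0.28, adjusted p = 0.00432), Ripk3, a kinase of necroptosis, by 0.91 (adjusted p = 0.00573), Fas, a death receptor, by 0.63 (adjusted p = 0.00786) and Gsdmd, the pore former of pyroptosis, by 0.51 (adjusted p = 0.012). Ptgds, a prostaglandin D synthase, fell by 0.94 (adjusted p = 0.0346), and Gstm5 and Gsta2, of the glutathione transferases, by 0.58 and 0.91 (adjusted p = 0.00817 and 0.0475). Ptgds lost the threshold in 17 of 38 alternative settings, Gsta2 in 23 and Gstm5 in 3. Cdk6, a kinase related to Cdk4, rose by 1.13 with all 3 of its probe sets past the threshold (adjusted p = 0.00415), while Cdk4, the mutated kinase of the model, changed by -0.30 (adjusted p = 0.0592).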
